A study of Mus musculus with 9 samples.

Results

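The genes described here encode the nuclear subunits of the mitochondrial respiratory chain and of ATP synthase, together with assembly factors that carry the same symbol stems. They were taken by symbol alone, as every gene whose name begins with Ndufa, Ndufb, Ndufc, Ndufs, Ndufv, Uqcr, Atp5 or Cox and a digit, plus Sdha, Sdhb, Sdhc and Sdhd. The rule found 102 of the 24505 genes in the deposited table and used no measured value. By symbol they were 38 complex I, 4 complex II, 8 complex III, 18 complex IV and 15 ATP synthase subunits. The 38 hold Ndufa4, which is now known as a complex IV subunit, and its paralog Ndufa4l2. The rule also took 8 complex I assembly factors (Ndufaf genes), 9 complex IV assembly factors such as Cox10 and Cox20, and Atp5s and Atp5sl, 2 genes that carry the Atp5 stem but stand outside the subunit list used here. Thus at least 17 of the 102 genes, while part of the same machinery, are assembly factors rather than subunits.

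The study measured nascent transcription by GRO-seq (global run-on sequencing, which labels RNA still being made by engaged polymerase) and the repressive histone mark H3K27me3 by ChIP-seq in mouse small intestinal cultures from the duodenum. There were 3 cultures, with 2 GRO-seq libraries each. RANKL libraries 1 and 2 are labelled intestinal M cell, an epithelial type that takes up antigen from the gut and is induced by the cytokine RANKL; ENRI libraries, from mouse 1 and mouse 2, are labelled enterocyte, the absorptive cell; WENRC libraries, from the same mouse 1 and mouse 2, are labelled intestinal stem cell. H3K27me3 was profiled in 2 RANKL libraries, which the authors pooled, and in 1 WENRC library. The labels give no genotype, strain, age or dose, and do not tie the RANKL libraries to a mouse. The RANKL libraries were combined from repeat sequencing and the others were not, per the file header, so the RANKL culture and its sequencing cannot be told apart.

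Complexes I to IV pass electrons from NADH and succinate to oxygen and, at complexes I, III and IV, pump protons across the inner mitochondrial membrane. ATP synthase lets the protons flow back and makes ATP. A few subunits of these complexes are encoded in mitochondrial DNA; all genes described here are nuclear, and each complex also needs assembly factors that do not stay in the finished enzyme. In the gut, enterocytes are rich in mitochondria, and respiratory capacity is known to differ between crypt stem cells and differentiated cells.

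The values are normalized log2 levels of nascent transcription over the whole gene, as the authors deposited them, and all changes below are differences of these log2 values. The table holds no read counts, so the depth of each library is unknown. A gene was tested where at least 2 of the 6 libraries reached log2 of 10, which left 16563 genes and 100 of the 102 respiratory chain genes; Cox6a2, the muscle form of a complex IV subunit, was listed at 0 in every library, and Cox8c lay between -0.58 and -0.41. The test was limma's moderated test on all 6 libraries, with Benjamini-Hochberg adjustment over all genes tested, and a gene is said to have risen or fallen where its adjusted p was under 0.05. Levels of RNA from a mixed culture cannot tell fewer cells of a type from less transcription per cell. Marker levels were summed before the log2 was taken, so the strongest genes weigh most. The log2 of the sum of 8 M cell markers was 13.32 and 13.40 in RANKL and 9.87 to 10.79 elsewhere. That of 7 enterocyte markers was 15.50 and 16.23 in ENRI, 14.62 and 14.77 in RANKL and 12.15 to 13.15 in WENRC. That of 6 stem cell markers was 13.41 to 13.86 in RANKL and WENRC and 10.90 and 11.35 in ENRI. Taken singly, 3 of these 6 were higher and 3 lower in RANKL than in WENRC. Lgr5 had 8.75 and 8.84 in RANKL, 8.89 and 8.51 in ENRI, and 11.64 and 11.99 in WENRC. The log2 of the sum of 3 proliferation markers was 10.39 and 10.99 in ENRI and 11.86 to 12.25 elsewhere. Sums of secretory and tuft cell markers varied too: 5 goblet markers had 13.25 to 13.79 in RANKL and ENRI and 11.80 and 10.69 in WENRC. In RANKL 4 Paneth markers had 10.85 and 10.61 (8.21 to 9.19 elsewhere), 3 enteroendocrine markers 10.39 and 10.84 (8.69 to 9.84 elsewhere) and 3 tuft markers 9.13 and 9.19 (7.79 to 8.35 elsewhere). The part of these differences in the results below was not tested. Immune and stromal marker sums stayed at or below 5.35 and 4.18, with no marker listed at 0.

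Against ENRI, most respiratory chain genes were lower in RANKL, but few passed the test. Of the 100 tested, 74 had a lower mean in RANKL, with a median change of -0.24, beside a median of -0.00 over all genes tested. The adjusted test called 12 of them, 3 that rose and 9 that fell, while it called 20.9% of all genes tested (10.4% rose and 10.5% fell). Without a threshold on p, 56 genes had both RANKL libraries below both ENRI libraries, as did 32.3% of all genes, and 18 had both above, as did 32.4% of all genes. The authors' deposited table called 11 members, against 19.6% of the same genes, and 7 of the 12 limma calls were among them. The number of calls rests on single libraries, for all genes as for the members. Leaving out a single library moved it up or down over the whole table. With only the 4 libraries compared limma called 5 members, beside 11.6% of all genes. The median change stayed between -0.28 and -0.19 whichever library was left out.

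The comparisons of RANKL with WENRC and of WENRC with ENRI gave 5 and 4 calls. RANKL was below WENRC for 68 of 100 genes, with a median of -0.17 (all genes, -0.01); after recentring on upper quartiles the count was 78 and the medians were -0.29 and -0.12. Of these genes 1 rose and 4 fell, beside 12.1% of all genes tested (8.53% rose and 3.62% fell). Both RANKL libraries lay below both WENRC libraries for 42 members, beside 34.5% of all genes, and above them for 19, beside 34.1%; the authors' deposited table called 12 members, beside 27.8%. With only the 4 libraries compared limma called 14 members, beside 31.4% of all genes. Leaving out single libraries moved the number of calls for all genes as for the members. Without WENRC 1 the median moved to -0.0093. WENRC was below ENRI for 65 of 100 genes, with a median of -0.14 (all genes, -0.01). Here 2 rose and 2 fell, 4 calls beside 14.6% of all genes (4.85% rose and 9.74% fell). The WENRC libraries lay below both ENRI libraries for 37 members, beside 29.2% of all genes, and above them for 21, beside 29.3%; the authors' deposited table also called 4 members, beside 12.5%. The split depended on scaling. After recentring on upper quartiles 7 of 9 calls were rises, with 18.4% of all genes called in either direction. After quantile normalization 5 of 7 were, with 19.1% of all genes called. The recentring left 54 genes lower instead of 65 and moved the median of all genes to 0.10. Here too the number of calls moved with the library left out, for all genes as for the members. Without WENRC 2 the median of the members was -0.013. The 3 comparisons share libraries, so their counts are not independent of each other.

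**Figure D1:**
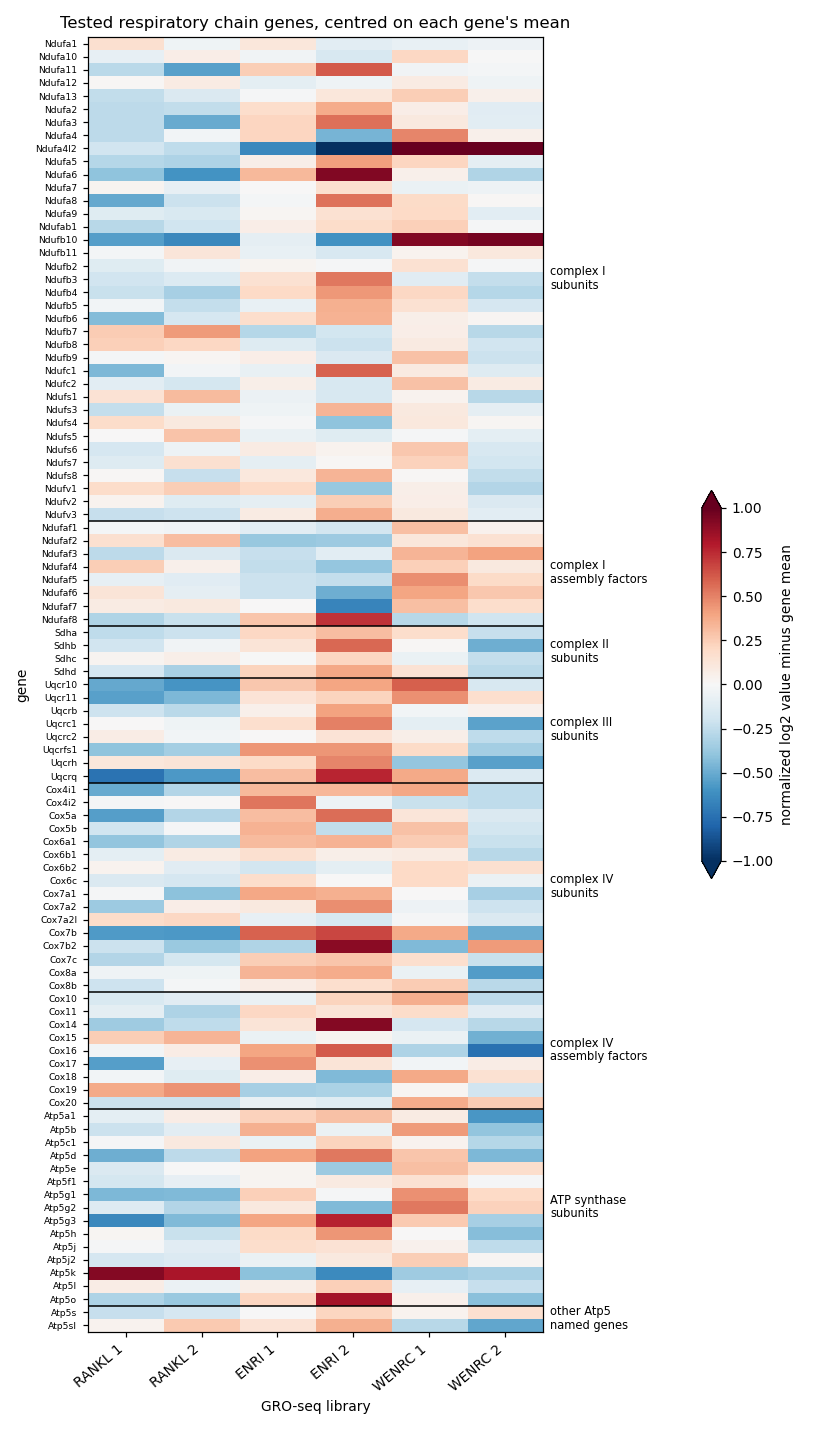
Normalized log2 value of 99 of the 100 tested genes (rows, by role) in each of the 6 GRO-seq libraries (columns), minus the gene's mean over the libraries; the color scale ends at -1 and 1. The median over all 100 genes was -0.14 and -0.11 in RANKL 1 and 2, 0.07 and 0.17 in ENRI 1 and 2, and 0.12 and -0.15 in WENRC 1 and 2.

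As the heat map shows, the pair of WENRC libraries stood on opposite sides of the mean. The centred median of the 100 genes was 0.12 in WENRC 1 and -0.15 in WENRC 2, while the RANKL libraries lay at -0.14 and -0.11 and the ENRI libraries at 0.07 and 0.17. WENRC 2 was thus as low as the RANKL libraries by this measure and WENRC 1 was not. Across the 100 genes the SD of the difference between the 2 libraries was 0.16 in RANKL, 0.32 in ENRI and 0.24 in WENRC.

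The promoters of 4 of these genes that changed are shown here. In the main limma fit Atp5k was the only member that passed in both comparisons of RANKL, and Atp5g3 fell against ENRI. The authors' deposited table called Uqcrq and Uqcr10 in both comparisons as well. Cox7b and Ndufb10 changed and also had a differential H3K27me3 region near the start. So did Ndufa4l2, but for it and for Uqcrq no promoter window was matched. Each line gives the 250 bases before the first listed start, 5′ to 3′ on the gene's strand, from RefSeq on GRCm38.p6, a different build from the mm9 of the expression table. Capitals mark matches to the motif letters searched on both strands: AAGGTCA for the estrogen-related receptors, GCATGCG for NRF1, CCGGAAG for Ets factors and AAGATGG for YY1. In Atp5k the capitals are a palindrome that holds the NRF1 letters on both strands and counts as 2 overlapping matches; in Atp5g3 they are the estrogen-related receptor letters on the other strand.
Atp5k, chr5:108434400-108434649, minus strand: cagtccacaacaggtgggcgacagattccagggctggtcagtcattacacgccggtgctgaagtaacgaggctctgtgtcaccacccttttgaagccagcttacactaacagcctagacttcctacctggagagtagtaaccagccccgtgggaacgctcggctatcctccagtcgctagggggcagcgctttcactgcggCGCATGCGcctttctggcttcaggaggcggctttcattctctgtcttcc
Atp5g3, chr2:73911327-73911576, minus strand: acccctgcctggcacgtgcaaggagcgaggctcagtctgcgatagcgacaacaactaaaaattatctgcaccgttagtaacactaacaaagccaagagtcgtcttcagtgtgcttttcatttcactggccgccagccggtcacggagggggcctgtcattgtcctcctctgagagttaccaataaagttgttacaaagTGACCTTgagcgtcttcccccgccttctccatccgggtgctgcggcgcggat
Cox7b, chrX:106015450-106015699, plus strand: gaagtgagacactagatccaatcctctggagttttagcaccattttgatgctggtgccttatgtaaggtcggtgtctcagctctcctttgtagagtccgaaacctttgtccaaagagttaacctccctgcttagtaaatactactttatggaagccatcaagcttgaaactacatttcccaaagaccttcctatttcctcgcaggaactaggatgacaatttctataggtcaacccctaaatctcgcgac
Ndufb10, chr17:24724424-24724673, minus strand: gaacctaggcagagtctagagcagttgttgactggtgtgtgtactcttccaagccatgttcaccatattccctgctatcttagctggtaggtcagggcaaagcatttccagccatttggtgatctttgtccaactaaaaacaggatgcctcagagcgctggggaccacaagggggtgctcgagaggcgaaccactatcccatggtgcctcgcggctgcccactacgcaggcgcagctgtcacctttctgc
No letters searched were in the windows of Cox7b and Ndufb10. In Atp5k the NRF1 letters began 49 and 48 bases before the start. The Atp5k window also held AAGGTCA 24 bases and the Ets letters 13 bases after the start, outside the bases shown.

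A promoter window was matched for 84 of the 102 genes. Over these 250 bases the Ets letters were in 17 of the 84 (20.2%), beside 7.83% of all 27025 genes in the RefSeq table, and the NRF1 letters were in 10 (11.9%), beside 3.43%. Ets factors of the GABP type and NRF1 are textbook regulators of nuclear respiratory genes. The estrogen-related receptor letters were in 5 (5.95%, beside 4.70%) and the YY1 letters in 3 (3.57%, beside 5.18%). With the 50 bases after the start included, the Ets letters were in 23 (27.4%, beside 9.93%), the NRF1 letters in 13 (15.5%, beside 4.01%), the estrogen-related receptor letters in 8 (9.52%, beside 5.38%) and the YY1 letters in 15 (17.9%, beside 7.28%). Of the 17 genes with Ets letters before the start 14 were lower in RANKL than in ENRI, with a median change of -0.22; of the 10 with NRF1 letters 8 were, with a median of -0.35. These medians stand beside -0.24 for all 100 genes tested. A match is a run of letters, not a measured binding site.

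Complex I takes electrons from NADH. Its 38 subunits, counted by symbol, include Ndufa4 and Ndufa4l2. Of these 38, 25 were lower in RANKL than in ENRI, with a median of -0.14. The 3 that fell, beside 10.5% of all genes, were Ndufa6, Ndufa11 and Ndufa3. Ndufa6, an accessory subunit of the matrix arm (NM_025987, mm9 chromosome 15, 82180569 to 82184721), had 8.39 and 8.19 in RANKL, 9.12 and 9.72 in ENRI, and 8.85 and 8.49 in WENRC. Both RANKL libraries lay below all others; the change against ENRI was -1.13 (SE 0.24, limma adjusted p = 0.0264), past the threshold in 7 of 12 other limma fits. Ndufa11, a membrane arm subunit, had 6.65 and 6.37 in RANKL, 7.16 and 7.53 in ENRI, and 6.88 and 6.90 in WENRC, with a change of -0.84 (SE 0.21, limma adjusted p = 0.0383; 0.00777 to 0.252 over 12 other limma fits, 5 of them past the threshold). Its 3 cultures did not overlap, with WENRC between the others. Ndufa3, also of the membrane arm, changed by -0.77 (limma adjusted p = 0.0490, past the threshold in 4 of 12 other limma fits). The authors' deposited table called neither Ndufa11 (adjusted p = 0.0683) nor Ndufa3 (adjusted p = 0.0971). Ndufa3 was named after its values were seen, and its 2 RANKL libraries, at 6.70 and 6.45, lay below the 7.17 and 7.51 of ENRI.

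The core subunits of complex I described here changed by between -0.33 and 0.33 in RANKL against ENRI. Ndufs1, the largest iron-sulfur subunit, had 9.72 and 9.89 in RANKL, 9.52 and 9.42 in ENRI, and 9.62 and 9.30 in WENRC, a change of 0.33 against ENRI (SE 0.16, limma adjusted p = 0.191); it overlaps the listed antisense gene Ino80dos. Ndufv1, which binds NADH, changed by 0.31 (SE 0.25) against ENRI, and Ndufv2, its partner, by -0.12 (SE 0.17). Ndufs3, Ndufs7 and Ndufs8, subunits of the peripheral arm, changed by -0.30, 0.05 and -0.33. Among these core subunits the lowest adjusted p against ENRI was that of Ndufs1. There were 2 libraries a culture and the SEs were 0.16 to 0.25, so the lack of calls does not show that these subunits were unchanged.

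Most of the complex I assembly factors named Ndufaf ran the other way from the subunits against ENRI. Assembly factors under other symbols were not counted here. Of 8 Ndufaf genes 6 were higher in RANKL, with a median of 0.25, and 7 were higher in WENRC than in ENRI, with a median of 0.52; in the latter comparison all 7 had both WENRC libraries above both ENRI libraries (29.3% of all genes did). After quantile normalization the counts were 7 and 7. Ndufaf2, an assembly factor, rose in RANKL by 0.61 (SE 0.13, limma adjusted p = 0.0276), from 8.34 and 8.36 in ENRI to 8.88 and 9.03, with 8.84 and 8.87 in WENRC. The ENRI libraries were the low ones, and the authors' deposited table did not call it (adjusted p = 0.101). Ndufaf8 was the exception and fell by 0.76 (limma adjusted p = 0.0474): ENRI had 7.41 and 7.86, above the 6.83 and 6.91 of RANKL and the 6.86 and 6.93 of WENRC. It passed in 3 of 12 other limma fits, and the authors' deposited table did not call it (adjusted p = 0.0819). Between WENRC and ENRI limma called 0 of the 8 (6 with an unadjusted p under 0.05, lowest adjusted p = 0.0565), and the authors' deposited table called 0. With the mouse as a block Ndufaf6 and Ndufaf8 passed there, with changes of 0.68 and -0.74 (limma adjusted p = 0.0421 and 0.0398). The RANKL libraries have no labelled mouse, so this block takes the mouse difference out of ENRI and WENRC alone. In comparisons with RANKL its adjusted p may therefore be too low. Ndufaf2, Ndufaf6 and Ndufaf8 were named after their values were seen. Tepsin, 203 bases from Ndufaf8 on the opposite strand, changed by -1.15 in RANKL and -0.99 in WENRC against ENRI. Ercc8, 113 bases from Ndufaf2 on the opposite strand, changed by 0.28 and 0.12 in the same order. Other Ndufaf genes also had neighbours on the opposite strand. Esf1, 88 bases from Ndufaf5, changed by 1.10 and 1.11, and Impdh2, 299 bases from Ndufaf3, by 0.48 and 0.61. Cebpz and Prkd3, 65 and 1353 bases from Ndufaf7, changed by 0.66 and 0.50 and by 0.55 and 0.97. The part of these neighbours in the results was not tested.

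Ndufb10 and Ndufa4l2 were the 2 members that rose in WENRC against ENRI. Ndufb10, a membrane arm subunit of complex I (NM_026684, mm9 chromosome 17, 24859012 to 24861333), had 9.38 and 9.42 in WENRC, 8.37 and 7.85 in ENRI, and 7.91 and 7.81 in RANKL. The WENRC libraries lay far above the rest, and RANKL overlapped ENRI. It was 1.29 higher in WENRC than in ENRI (SE 0.20, limma adjusted p = 0.0162; 0.000403 to 0.132 over 13 other limma fits, 7 of them past the threshold) and changed by -1.54 in RANKL against WENRC (SE 0.20, limma adjusted p = 0.00879). The rise was 1.01 in mouse 1 and 1.56 in mouse 2. Its end lies 140 bases from that of Rps2, a ribosomal protein gene on the opposite strand, which had 9.64 and 9.77 in RANKL, 9.67 and 11.24 in ENRI and 10.50 and 10.78 in WENRC. The part of Rps2 in this result was not tested.

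Ndufa4l2 (NM_001098789, mm9 chromosome 10, 126951995 to 126954210), a paralog of Ndufa4 known to be induced by hypoxia, had the largest change of any member. It had 7.10 and 7.14 in WENRC, 5.86 and 5.79 in RANKL, and 5.40 and 5.01 in ENRI, so that the 3 cultures did not overlap. It was 1.91 higher in WENRC than in ENRI (SE 0.21, limma adjusted p = 0.00937; 0.000465 to 0.100 over 13 other limma fits, 7 of them past the threshold), by 1.70 in mouse 1 and 2.13 in mouse 2. RANKL against WENRC gave -1.29 (SE 0.21, limma adjusted p = 0.0156) and RANKL against ENRI 0.62 (limma adjusted p = 0.0840). Its end overlaps Shmt2, a mitochondrial serine metabolism gene on the opposite strand, by 31 bases. Shmt2 had 8.23 and 7.91 in WENRC, 7.09 and 7.20 in RANKL, and 6.54 and 6.29 in ENRI, the same order of cultures. The header names no strand setting, so reads of overlapping genes cannot be told apart, and the part of Shmt2 in this result was not tested. Ndufa4 itself, now known as a complex IV subunit, had 6.82 and 7.05 in RANKL, 7.30 and 6.62 in ENRI, and 7.57 and 7.13 in WENRC. It passed no comparison, and its 2 ENRI libraries differed by 0.68.

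**Figure D2:**
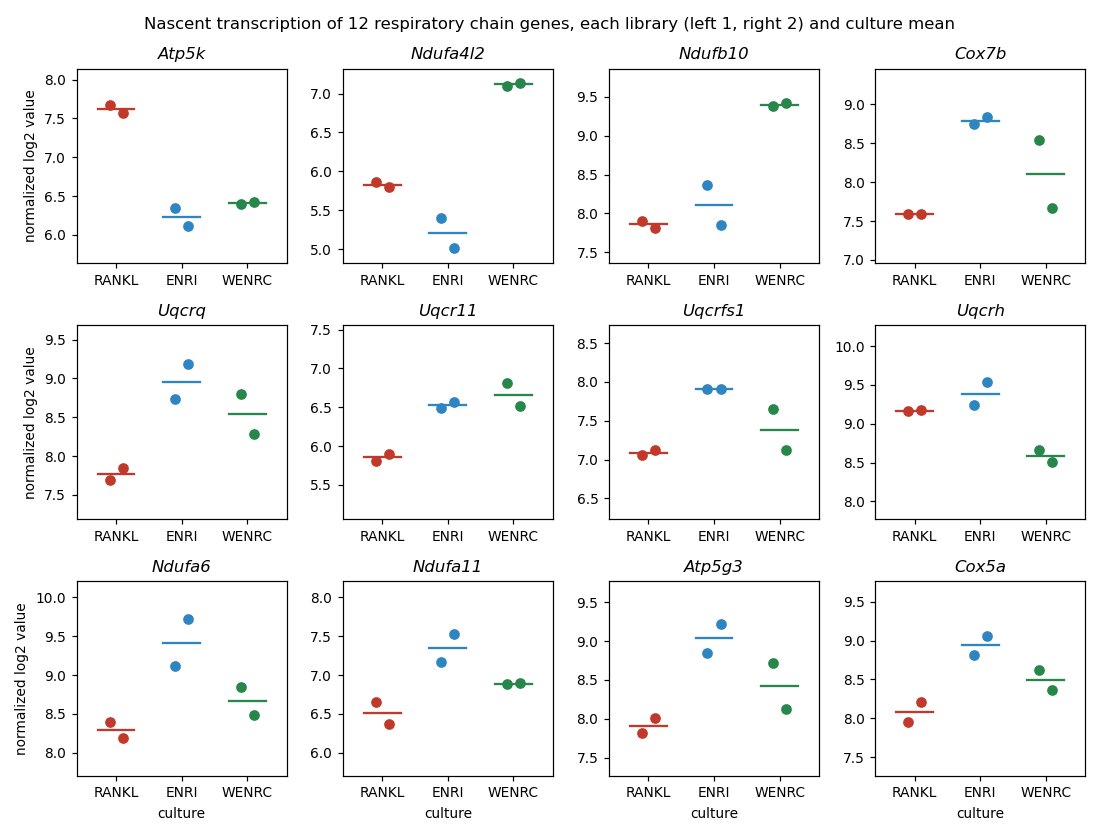
Normalized log2 value of 12 members in the 2 libraries of each culture (points) with the culture mean (line); each panel spans 2.5 log2 units. Atp5k was highest in RANKL, Ndufa4l2 and Ndufb10 in WENRC, and Cox7b, Uqcrq, Ndufa6, Atp5g3 and Cox5a had both RANKL libraries below all others.

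Complex II, succinate dehydrogenase, links the respiratory chain to the citric acid cycle. Its 4 subunits were lower in RANKL than in ENRI (median -0.48) and lower in WENRC than in ENRI (median -0.33). For all 4 both WENRC libraries lay below both ENRI libraries, as for 29.2% of all genes. Sdha, the flavoprotein, had 9.59 and 9.63 in RANKL, 10.05 and 10.15 in ENRI, and 10.02 and 9.61 in WENRC, a change of -0.49 against ENRI (SE 0.17, limma adjusted p = 0.0896). Sdhb, the iron-sulfur subunit, had 9.19 and 9.35, 9.51 and 9.96, and 9.40 and 8.89 in the same order. Limma called 0 of the 4 in each comparison with ENRI (2 with an unadjusted p under 0.05 for RANKL and 1 for WENRC), and the authors' deposited table called 0.

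Complex III, which passes electrons from ubiquinol to cytochrome c, had the lowest median against ENRI of the subunit classes, -0.57. All 8 genes had a lower mean in RANKL. Both RANKL libraries lay below both ENRI libraries for 7 of them, beside 32.3% of all genes, and 2 fell, beside 10.5%. Uqcrq (NM_025352, mm9 chromosome 11, 53241424 to 53244333), a small subunit beside cytochrome b, had 7.69 and 7.85 in RANKL, 8.73 and 9.19 in ENRI, and 8.80 and 8.29 in WENRC. Its RANKL libraries lay below all others, with a change of -1.19 against ENRI (SE 0.24, limma adjusted p = 0.0222; 0.00278 to 0.162 over 12 other limma fits, 10 of them past the threshold) and of -0.78 against WENRC (limma adjusted p = 0.0937). Uqcrfs1, the Rieske iron-sulfur protein, had 7.06 and 7.12 in RANKL, 7.90 in each ENRI library, and 7.65 and 7.12 in WENRC. It fell by 0.81 against ENRI (SE 0.21, limma adjusted p = 0.0442), and WENRC 2 reached the RANKL level while WENRC 1 did not. The core proteins Uqcrc1 and Uqcrc2 changed by -0.35 and -0.04 against ENRI.

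Uqcr11 and Uqcrh differed from WENRC or in WENRC. Uqcr11, the smallest complex III subunit, had 5.81 and 5.90 in RANKL, 6.49 and 6.57 in ENRI, and 6.81 and 6.52 in WENRC. It fell by 0.81 in RANKL against WENRC (SE 0.19, limma adjusted p = 0.0483, past in 6 of 12 other limma fits), and its change of -0.67 against ENRI missed the threshold (limma adjusted p = 0.0560, or 0.0457 with the mouse as a block). Uqcrh, the hinge protein that contacts cytochrome c1, was low in WENRC instead: 8.66 and 8.50, beside 9.24 and 9.54 in ENRI and 9.16 and 9.18 in RANKL. It fell by 0.80 in WENRC against ENRI (SE 0.16, limma adjusted p = 0.0265), by 0.58 in mouse 1 and 1.03 in mouse 2. So the lowest culture was RANKL for Uqcr11 and WENRC for Uqcrh.

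**Figure D3:**
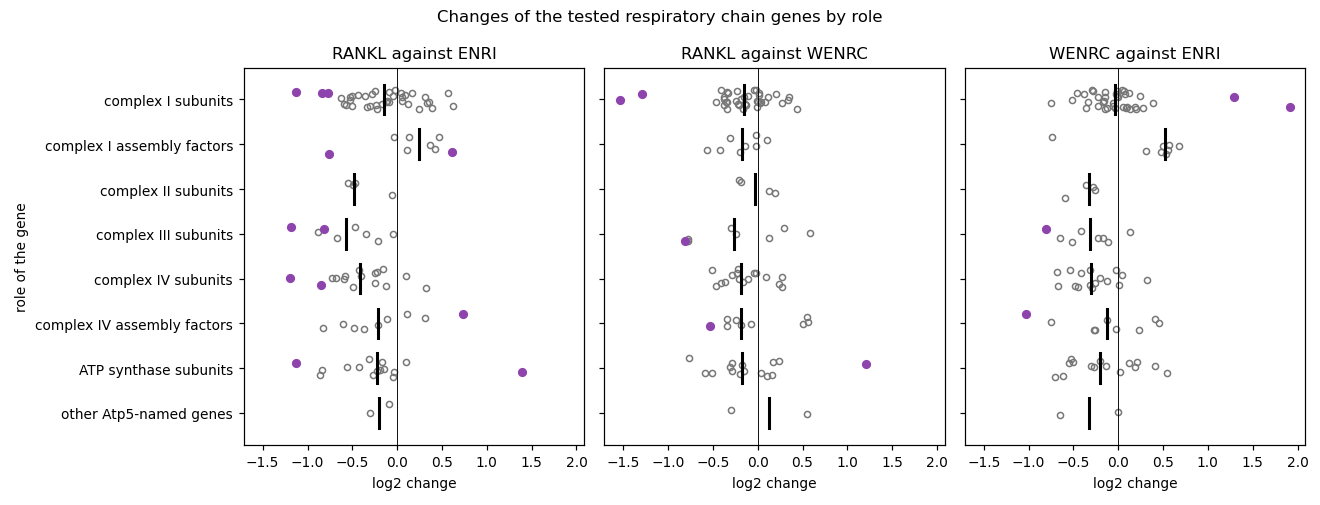
Log2 change of each of the 100 tested genes (points) by role in the 3 comparisons; filled points passed limma's test at an adjusted p under 0.05 and black bars are medians. Against ENRI all 8 complex III genes and all 4 complex II genes lie below 0 in RANKL, while 6 of the 8 Ndufaf genes (complex I assembly factors) lie above it.

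Complex IV, cytochrome c oxidase, reduces oxygen. Of its 16 tested subunits 14 were lower in RANKL than in ENRI, with a median of -0.41, and 2 fell, beside 10.5% of all genes. Cox7b (NM_025379, mm9 chromosome X, 103211039 to 103217789), a small subunit, had 7.59 in each RANKL library, 8.75 and 8.83 in ENRI, and 8.54 and 7.67 in WENRC, a change of -1.20 against ENRI (SE 0.29, limma adjusted p = 0.0341; 0.0200 to 0.198 over 12 other limma fits, 10 of them past the threshold). WENRC 2 lay near RANKL and WENRC 1 near ENRI. Cox7b is X-linked, and Xist, the RNA that silences an X chromosome in females, was at 11.94 and 12.18 in RANKL, 4.52 and 10.90 in ENRI, and 5.42 and 11.60 in WENRC, so low in the mouse 1 libraries alone. Both ENRI libraries of Cox7b were close, while WENRC 1 lay above WENRC 2, and the part of the X chromosome's state was not tested. The other X-linked members, Ndufa1 and Ndufb11, complex I subunits, ranged over the 6 libraries from 4.57 to 4.84 and from 5.39 to 5.68 and passed no comparison. Cox5a, a core-contacting subunit, had 7.96 and 8.21 in RANKL, 8.82 and 9.06 in ENRI, and 8.63 and 8.36 in WENRC, a fall of 0.85 against ENRI (SE 0.18, limma adjusted p = 0.0250). Cox4i1, the main form of subunit 4, had 8.09 and 8.30, 8.91 and 8.92, and 8.98 and 8.34; its change of -0.73 missed the threshold (limma adjusted p = 0.0760, or 0.0463 with the mouse as a block), and the authors' deposited table called it. Cox7a2l, a supercomplex factor, was among the 2 subunit genes that were higher in RANKL, by 0.32 (limma adjusted p = 0.150).

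The complex IV assembly factors went in different directions. Cox19, a copper-handling factor that was named after its values were seen, rose by 0.74 in RANKL against ENRI (SE 0.16, limma adjusted p = 0.0283): it had 7.80 and 7.87 in RANKL, 7.09 and 7.11 in ENRI, and 7.44 and 7.23 in WENRC. The authors' deposited table did not call Cox19 (adjusted p = 0.0637). Cox20, which stabilizes newly made Cox2 protein, had 9.25 in each RANKL library, 9.39 and 9.34 in ENRI, and 9.83 and 9.72 in WENRC, and fell by 0.53 in RANKL against WENRC (SE 0.12, limma adjusted p = 0.0478). Cox16 had 11.24 and 10.80 in WENRC, 11.94 and 12.16 in ENRI, and 11.52 and 11.62 in RANKL, a fall of 1.03 in WENRC against ENRI (SE 0.19, limma adjusted p = 0.0246). The listed Cox16 span of 126 kb lies wholly within that of Synj2bp-cox16, a read-through gene on the same strand, which changed by -1.12, so that these values cannot be assigned to Cox16 alone. Cox14, another assembly factor, differed by 0.79 between the ENRI libraries (7.47 and 8.26), more than its RANKL libraries (6.98 and 7.09) differed from ENRI 1.

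Atp5k, an ATP synthase gene, had the largest rise of any member in RANKL. Atp5k (NM_007507, mm9 chromosome 5, 108862272 to 108863397) encodes subunit e, which helps ATP synthase pair into dimers. It had 7.67 and 7.57 in RANKL, 6.34 and 6.11 in ENRI, and 6.40 and 6.43 in WENRC. The RANKL libraries lay more than a log2 unit above all 4 others, which were close together. It rose by 1.39 against ENRI (SE 0.18, limma adjusted p = 0.00650; 0.00116 to 0.0854 over 12 other limma fits, 10 of them past the threshold) and by 1.20 against WENRC (SE 0.18, limma adjusted p = 0.0129; 0.00138 to 0.149 over 12 other limma fits, 8 of them past the threshold). The nearest listed gene, Pde6b, lies 1511 bases away on the opposite strand; it ranged from 7.25 to 7.83 over the 6 libraries and changed by 0.16 and -0.15. Atp5k was one of 2 ATP synthase genes of 15 that were higher in RANKL than in ENRI; the other, Atp5e, had a change of 0.10.

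The other 13 ATP synthase genes had lower means in RANKL than in ENRI, and 1 of them fell, beside 10.5% of all genes. Atp5g3 (NM_001301722, mm9 chromosome 2, 73746504 to 73749383) encodes the c subunit that forms the rotating ring. It had 7.81 and 8.01 in RANKL, 8.85 and 9.22 in ENRI, and 8.71 and 8.12 in WENRC, all RANKL values below the rest, and fell by 1.12 against ENRI (SE 0.25, limma adjusted p = 0.0279). The alpha, beta and gamma subunits changed less than Atp5g3. Atp5a1 (alpha) had 10.10 and 10.28 in RANKL, 10.42 and 10.49 in ENRI, and 10.28 and 9.62 in WENRC. Its change against ENRI was -0.27 (SE 0.23). Atp5b (beta) and Atp5c1 (gamma) changed by -0.31 (SE 0.29) and -0.03 (SE 0.18) against ENRI. Atp5d (delta) changed by -0.84 (SE 0.26, limma adjusted p = 0.0720) and was called by the authors' deposited table. The list of 17 central subunits of all complexes also holds Cox4i1 and Cox5a, which lie around the mitochondrially encoded core of complex IV and are not themselves catalytic. Of the 17, 14 were lower in RANKL than in ENRI and 16 were lower in WENRC than in ENRI, with medians of -0.30 and -0.20; the second count was 13 after recentring on upper quartiles and 14 after quantile normalization. Between RANKL and WENRC 8 of the 17 were lower and 9 higher, with a median of 0.0073, or 10 lower under either of these scalings; limma called 0 of them (0 had an unadjusted p under 0.05, and the authors' deposited table called 0).

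Several subunits exist in alternative forms encoded by separate genes, some of them enriched in muscle or in specialized tissues. To compare levels between genes, the log2 length of the gene in kb was taken from the log2 value, which gives a level per kb. Cox4i1, the common form, stood at 6.01 ± 0.39 per kb (SD over the 6 libraries) and Cox4i2, the form known from lung and low oxygen, at 2.49 ± 0.29; the spans of Cox4i2 and Bcl2l1 overlap. Every Cox4i1 library (5.50 to 6.40) lay above every Cox4i2 library (2.24 to 3.03). Cox8a, the common form, was at 6.15 ± 0.34 and Cox8b, known from muscle, at 4.83 ± 0.21, again without overlap. Cox7b stood at 5.41 ± 0.60 and its testis-type paralog Cox7b2 at -3.09 ± 0.54. Cox7b2 was the tested member with the lowest level, and its ENRI libraries differed by 1.21, the widest split of any member. Its change of -0.59 in RANKL against ENRI passed only with the mouse as a block (limma adjusted p = 0.397 without it and 0.0364 with it).

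In other families the forms were closer. Cox6b1 was at 5.22 ± 0.16 per kb and Cox6b2 at 4.84 ± 0.16, and their libraries overlapped (4.94 to 5.38 and 4.65 to 5.04). Cox7a1, known as the muscle form, stood at 6.02 ± 0.33 and Cox7a2 at 5.25 ± 0.29, with Cox7a1 higher in all 6 libraries. Before length was taken off, Cox7a2 had the higher mean, 7.46 beside 6.91, so this order rests on gene length. Capns1, 912 bases from Cox7a1 on the opposite strand, had 7.95 to 8.92. Fam71e2 lies 133 bases from Cox6b2 on the same strand, and Psmd13 300 bases from Cox8b on the opposite strand. The part of these neighbours was not tested. Among the 3 genes for the c subunit, Atp5g3 led with 6.93 ± 0.55, above Atp5g1 (4.97 ± 0.37) and Atp5g2 (4.96 ± 0.36), which did not differ beyond their spread. Ndufa4l2 exceeded Ndufa4 per kb in RANKL (4.71 and 4.65, beside at most 4.23) and in WENRC (5.95 and 5.99 beside 4.74 and 4.31), but not in ENRI 1, where it stood at 4.25 beside 4.47. These levels of nascent transcription cover introns and exons, and say nothing of mature RNA or protein. The highest levels per kb of all members were those of Cox20 (7.64), Atp5b (7.41) and Ndufb10 (7.24).

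**Figure D4:**
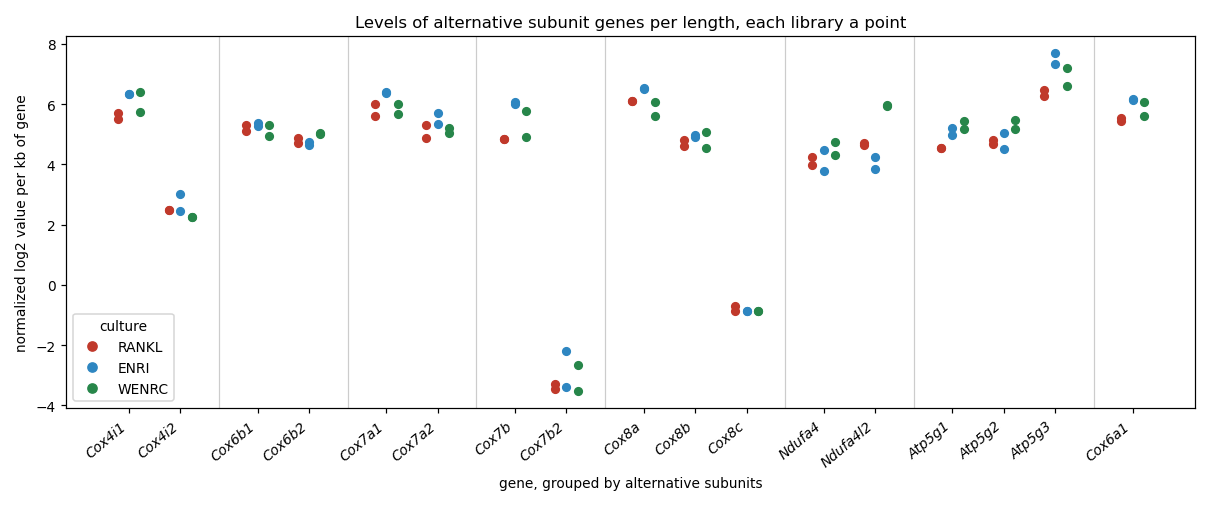
Normalized log2 value minus log2 gene length in kb for the genes of alternative subunits, with each of the 6 libraries as a point colored by culture. Cox4i2, Cox7b2 and Cox8c lie far below Cox4i1, Cox7b and Cox8a, whereas Cox6b1 and Cox6b2 overlap; Cox6a2 is listed at 0 and not drawn.

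H3K27me3, a mark laid down by Polycomb and found at silenced genes, differed near few members. The authors' deposited tables list regions with at least a 2-fold difference between pooled RANKL and WENRC. A RANKL-higher region lay within 5 kb of the start of 8 of the 102 genes (7.84%), beside 20.9% of all genes, and a WENRC-higher region near 4 (3.92%), beside 5.95%. On autosomes RANKL-higher regions were near 5 of 99 members, beside 19.6% of all genes. On the X chromosome they were near all 3 members, Cox7b, Ndufa1 and Ndufb11, beside 52.4% of all X genes. The WENRC profile is 1 library whose animal the labels do not name, so the Xist state of its source is not known and there is no replicate check. The counts depended on the distance: within 1 kb they were 2 and 0 (12.7% and 1.70% of all genes), and within 50 kb 56 and 36 (51.0% and 33.6% of all genes).

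The largest region lay over the start of Ndufa4l2 (mm9 chromosome 10, 126948653 to 126952737), with 323 tags in RANKL and 123.3 scaled tags in WENRC, a 2.62-fold difference in the authors' deposited table. Ndufa4l2 was the member whose transcription was lower in RANKL than in WENRC by 1.29 on the log2 scale. The other RANKL-higher regions held 19 to 57 RANKL tags. They lay 2473 bases upstream of Ndufb11, 3360 bases downstream of the start of Ndufa1, 1004 bases upstream of Atp5g2, 995 bases downstream of the start of Cox6b2, 1627 bases upstream of Cox7b, 4420 bases upstream of Ndufs4, and at 2784 and 4089 bases upstream of Atp5d. None of these 7 genes passed the expression test between RANKL and WENRC by limma, though the authors' deposited table called Atp5g2 (adjusted p = 0.0296). The WENRC-higher regions held 21.6 to 27 scaled WENRC tags beside 5 to 11 in RANKL and lay near Cox4i2 (2043 bases downstream of its start), Ndufb10 (2178 bases upstream), Ndufb7 and Ndufb8. Ndufb10 thus had more of the mark upstream in WENRC, the culture in which its transcription was highest.

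**Figure D5:**
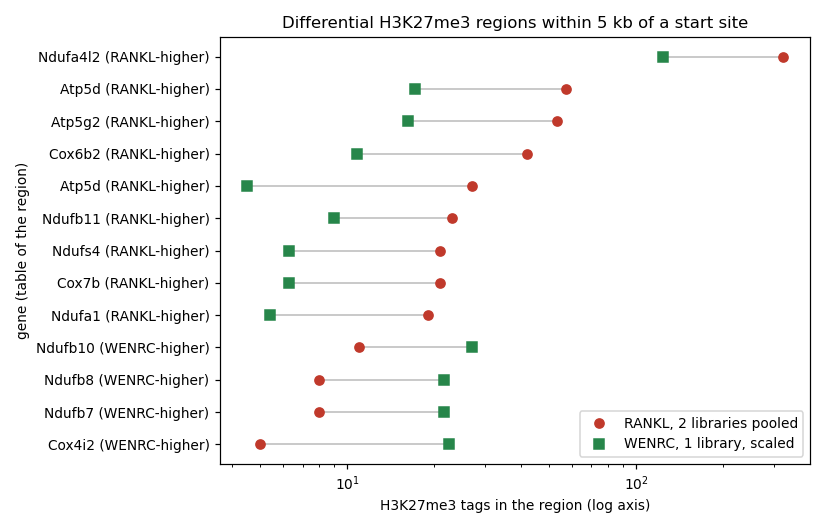
H3K27me3 tags (log axis) in the 13 differential regions within 5 kb of the start of a member, with RANKL (2 libraries pooled) as circles and WENRC (1 library, scaled to RANKL) as squares. The region at Ndufa4l2 held 323 and 123.3 tags; all others held 57 or fewer.

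Other genes of the pathway were taken from lists by function, whose counts stand beside 10.4% of all genes that rose and 10.5% that fell against ENRI, and 8.53% and 3.62% against WENRC. Cytochrome c, which carries electrons from complex III to IV, is encoded by Cycs. It had 7.09 and 6.85 in RANKL, 8.22 and 8.95 in ENRI, and 7.63 and 7.69 in WENRC, and fell by 1.61 against ENRI (SE 0.27, limma adjusted p = 0.0127); Cyc1, the cytochrome c1 of complex III, changed by -0.21. In the list of 28 electron carriers and further assembly genes 1 rose and 4 fell against ENRI (median -0.31), and 3 fell against WENRC. Of 14 glycolytic genes 5 fell against ENRI and 5 against WENRC, with medians of -0.48 and -0.81. Of 13 citric acid cycle genes 1 rose and 1 fell against ENRI (median -0.16), and of 78 mitochondrial ribosome genes 4 rose and 6 fell (median -0.04). Against WENRC the mitochondrial ribosome genes had a median of -0.24, with 60 of 78 lower in RANKL, 2 that rose and 0 that fell (18 had an unadjusted p under 0.05 in either direction, and 4 fell in the authors' deposited table); the respiratory chain genes had -0.17.

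Among 14 regulators of respiratory genes, 2 rose and 1 fell in RANKL against ENRI, beside 20.9% of all genes called. Esrrg, an estrogen-related receptor, had 14.02 and 14.12 in RANKL, 6.80 and 8.82 in ENRI, and 9.48 and 10.05 in WENRC. Pprc1, a coactivator of the PGC-1 family, had 9.63 and 9.82 in RANKL, 8.57 and 8.02 in ENRI, and 9.48 and 9.46 in WENRC, a rise of 1.43 against ENRI (SE 0.21, limma adjusted p = 0.00937). Ppargc1a, which encodes the coactivator PGC-1 alpha, had 9.20 and 9.13 in RANKL, 9.89 and 10.40 in ENRI, and 9.77 and 9.54 in WENRC, a fall of 0.98 against ENRI (SE 0.20, limma adjusted p = 0.0227). Esrrg was highest in RANKL, above ENRI by 6.26 and above WENRC by 4.31 (limma adjusted p = 0.00347 and 0.0121). In RANKL against WENRC, Pprc1 changed by 0.26 (limma adjusted p = 0.468) and Ppargc1a by -0.49 (limma adjusted p = 0.171), so neither passed. Pprc1 was 1.17 higher in WENRC than in ENRI (limma adjusted p = 0.0217), so ENRI was its low culture. In RANKL against WENRC 2 of the 14 regulators rose and 0 fell, beside 8.53% and 3.62% of all genes (5 had an unadjusted p under 0.05). They were Esrrg and Yy1, which rose by 0.58 (limma adjusted p = 0.0492). Esrra, Nrf1, Gabpa and Tfam, of the same list, passed no comparison, with changes against ENRI of -0.07, 0.47, -0.31 and 0.47.

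The members are short, with 70 of 102 under 10 kb. The 50 tested members below the median length of 7.342 kb had a median change of -0.41 in RANKL against ENRI, and the longer ones -0.18; against WENRC the values were -0.22 and -0.14. The part of length in these results was not tested.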

How the data were processed

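GRO-seq (6 libraries) and H3K27me3 ChIP-seq (3 libraries) of mouse duodenal cultures were analysed from the authors' files. Reads were aligned with Bowtie2 2.3.4.1, per the submitters' processing notes, and summed with HOMER over whole RefSeq genes of mm9, keeping 1 transcript per gene, per the file headers. The expression columns are log2 values normalized by the authors; the transform is not named, and their shape is that of a regularized logarithm, which draws low values together. The same deposited table gives the authors' DESeq2 log2 fold changes and adjusted p-values. The deposited H3K27me3 tables give tag counts, the other culture's tags as a scaled signal, fold ratios and p-values per region, per the file headers.

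All genes were fitted with limma 3.58.1 (R 4.3.3) as 3 group means over 6 libraries, with a variance trend and no pseudocount; genes needed log2 of 10 in at least 2 libraries, and calls an adjusted p under 0.05. The fit was tested on simulated data. Summaries used Python 3.11.15. Genes named were, in each comparison, the 8 members with the largest change among those called, the alternative subunits, the central subunits, the X-linked members, those near a differential H3K27me3 region and the 3 with the widest ENRI difference; 1 of them is not reported here. The members, lists and tests were chosen with earlier results of these data known. Same-numbered ENRI and WENRC libraries come from the same mouse, per the labels; the differences between the mice correlated over genes with r = 0.41 (16563 genes) and 0.10 (the 100 members). Each mouse was also processed at a different date, per the file headers, so mouse and date cannot be told apart. Nothing says whether the RANKL libraries are separate cultures, so p-values measure the spread between these libraries, which may be technical. Alternatives were other filters, scalings, library sets, a mouse term, the authors' results and other H3K27me3 distances. The mouse term described ENRI and WENRC only, since no mouse is labelled for RANKL. Adjusted p-values with this term in comparisons with RANKL may be too low.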

Additional observations from a re-analysis of the deposited data

How the results depend on the processing

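With only the 4 libraries compared there were 5 calls for RANKL against ENRI and 14 for RANKL against WENRC, beside 11.6% and 31.4% of all genes. WENRC against ENRI then gave 0 calls among members and 0 among all genes. There 13 members had an unadjusted p under 0.05, and the authors' results gave 4 calls. Leaving out 1 library gave 0 to 34, 0 to 14 and 0 to 24 calls (6 to 22 members at an unadjusted p under 0.05 where limma called 0), and medians of -0.28 to -0.19, -0.29 to -0.0093 and -0.25 to -0.013; a culture left with 1 library is assumed to vary like the others. With the mouse as a replicate block there were 17, 6 and 6 calls, beside 28.7%, 17.8% and 21.4% of all genes. Without the block these shares were 20.9%, 12.1% and 14.6%. The block gained 8 calls in all (Cox4i1, Cox6a1, Cox7b2, Uqcr10 and Uqcr11 against ENRI, Atp5g1 against WENRC, Ndufaf6 and Ndufaf8 in WENRC) and lost 0. A block with only the ENRI and WENRC libraries, chosen after seeing the data, gave 0 calls, beside 0.749% of all genes (8 members at an unadjusted p under 0.05). RANKL against WENRC gave 3 calls without a filter and 12 in the authors' deposited table, beside 7.47% and 27.8% of all genes. WENRC against ENRI gave 7 calls with the filter at log2 of 50 (20.6% of all genes) and 9 after recentring on upper quartiles (18.4%). It gave 7 after quantile normalization (19.1%) and 2 without members that overlap a listed gene (14.6%). Recentring moved the median of all genes to -0.12 in RANKL against WENRC and to 0.10 in WENRC against ENRI, and the median of members to -0.29 and -0.03. For H3K27me3, RANKL-higher regions were near 2 members within 1 kb, 56 within 50 kb and 1 at a fold of at least 4 (12.7%, 51.0% and 3.20% of all genes); WENRC-higher regions were near 0, 36 and 1 (1.70%, 33.6% and 1.45%). Of the 12, 5 and 4 members called, the authors' deposited table called 7, 5 and 4. Depth is unknown for expression, and no replicate check exists for H3K27me3.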
